A study of Solanum lycopersicum x Solanum pennellii and Solanum lycopersicum with 17 samples.

Results

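CEVI57 and twi1 are tomato stress-response genes, and each is represented by 1 probe set (Les.4022.1.S1_at for CEVI57 and Les.3777.1.S1_at for twi1) on the array used here. They are 2 of the 802 named genes among the 10101 probe sets tested, taken by their symbols in the platform annotation of 2007, which names 909 of the probe sets. They were chosen with their levels in these groups already known, so those levels are given as a description and no test of them is reported.

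Affymetrix tomato arrays were hybridised with RNA from carpels of Solanum lycopersicum taken 7 days after pollination, each array with a single sample. The 17 arrays fall into 4 groups. The reference is the cultivar M82, called parental and a seed control in the labels, with 6 arrays. It stands against 4 arrays of the introgression line IL-1_1, 3 of IL-1_4 and 4 of IL-2_3. An introgression line holds a defined chromosome segment of the wild species Solanum pennellii in a cultivated background, here that of M82, and its leading number is that of the chromosome concerned, so IL-1_1 and IL-1_4 hold segments of chromosome 1 and IL-2_3 a segment of chromosome 2. The lines are named hybrids in the design text, and whether the plants were homozygous for the segment is not given in the sources used here. All plants were grown in a greenhouse under the same treatment. Nothing says that replicates came from separate plants, so the spread between them may be technical.

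The CEVI genes were isolated from tomato as transcripts that accumulate after infection with citrus exocortis viroid, a small infectious RNA that provokes a defence response much like that to other pathogens. The gene twi1 was isolated as a wound-induced transcript and encodes a glucosyltransferase of the family that attaches glucose to small phenolic compounds, a step by which plants store or inactivate defence compounds and signals. Wounding acts in large part through jasmonate, an oxylipin hormone made from fatty acids by lipoxygenase and allene oxide synthase, and infection in large part through salicylate. The function of the CEVI57 protein is not described in the sources used here.

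The carpels carried transcripts of the carpel and fruit. TAGL1, a MADS-box gene of carpel identity, lay between 10.8 and 11.2 on the log2 scale in the 17 arrays, and TPRP-F1, a proline-rich protein gene of young fruit, between 13.97 and 14.54. Other markers varied within and between groups. The MADS-box genes TDR4 and TDR8 ran from 8.04 to 11.12 and from 4.13 to 9.12 over all arrays. The fruit growth gene fsm1 ran from 8.64 to 12.73 in M82, from 12.38 to 13.04 in IL-1_1, from 10.90 to 11.80 in IL-1_4 and from 10.17 to 11.56 in IL-2_3. In all IL-1_1 arrays fsm1 thus lay in the upper part of its range, as CEVI57 did. The part of fsm1 in the CEVI57 and twi1 differences was not tested. The pollen receptor kinase genes PRK1, PRK2 and PRK3 lay between 3.69 and 5.01, while LAT61, grouped with pollen genes by its symbol, lay between 12.1 and 12.7 in every group. TPP3, grouped with style and stigma genes by its symbol, lay between 14.25 and 14.65 in all arrays. Of the green tissue genes, CAB4 ran from 10.17 to 13.56, CAB6A from 11.44 to 13.45 and CAB5 from 5.22 to 9.38. Since whole carpels were sampled, more cells of a type and more RNA per cell cannot be told apart in any of the values that follow. The arrays of a group were not all alike. On the main axis of variation within groups, computed from deviations from group means and holding 47.3% of that variation, M82 replicate 1 scored 51.1, IL-1_1 replicate 1 scored 35.7 and IL-2_3 replicate 4 scored 32.2, and the other arrays lay between -27.9 and 18.2.

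CEVI57 was higher in every array of IL-1_1 than in any array of the other groups. In M82 its log2 level had a lowest value of 5.18, a median of 5.79 and a highest value of 7.22. In IL-1_1 it was 9.57, 12.13, 11.32 and 9.64 in replicates 1 to 4. All 4 IL-1_1 arrays thus lay above all 6 M82 arrays, and the nearest pair was more than 2 log2 units apart. In IL-1_4 the level was 5.37, 5.13 and 5.04, so that 2 of the 3 arrays lay just below the M82 minimum and replicate 1 just above it. In IL-2_3 it was 5.34, 5.12, 5.91 and 8.68, so that 3 arrays lay below the M82 maximum and replicate 4 lay above it.

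The mean level of CEVI57 was 10.67 ± 1.27 (SD, n = 4) in IL-1_1, 6.26 ± 1.64 (SD, n = 4) in IL-2_3, 5.91 ± 0.74 (SD, n = 6) in M82 and 5.18 ± 0.17 (SD, n = 3) in IL-1_4. IL-1_1 stood 4.75 ± 0.66 (SE of the limma fit over all arrays) log2 units above M82, which is 26.9-fold. It also stood 5.49 ± 0.78 above IL-1_4 and 4.40 ± 0.72 above IL-2_3, and its arrays overlapped with those of neither line. IL-1_4 and IL-2_3 differed from M82 by -0.74 ± 0.72 and 0.35 ± 0.66, differences no larger than the spread between arrays. The order of the 3 lower groups is therefore not settled by these arrays, and without IL-2_3 replicate 4 the difference of IL-2_3 from M82 was -0.46. The means of IL-2_3, M82 and IL-1_4 stood at percentiles 16.4, 14.7 and 10.9 of the probe sets. Without detection calls, low CEVI57 values in these groups may be background, and the fold over M82 rests on them.

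Groups that do not overlap are common in this table. Of all probe sets, 3.04% had every IL-1_1 array above every M82 array, 17.5% had every IL-1_1 array above every IL-1_4 array, and 4.77% had every IL-1_1 array above every IL-2_3 array. By size, the CEVI57 difference of IL-1_1 from M82 ranked 1 among positive differences of the 10101 probe sets, and 9 when differences in either direction were ranked. It ranked 1 among positive differences of IL-1_1 from IL-1_4 too, and 12 among those from IL-2_3. These ranks come from the contrasts that led to the choice of the gene and support nothing further.

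**Figure D1:**
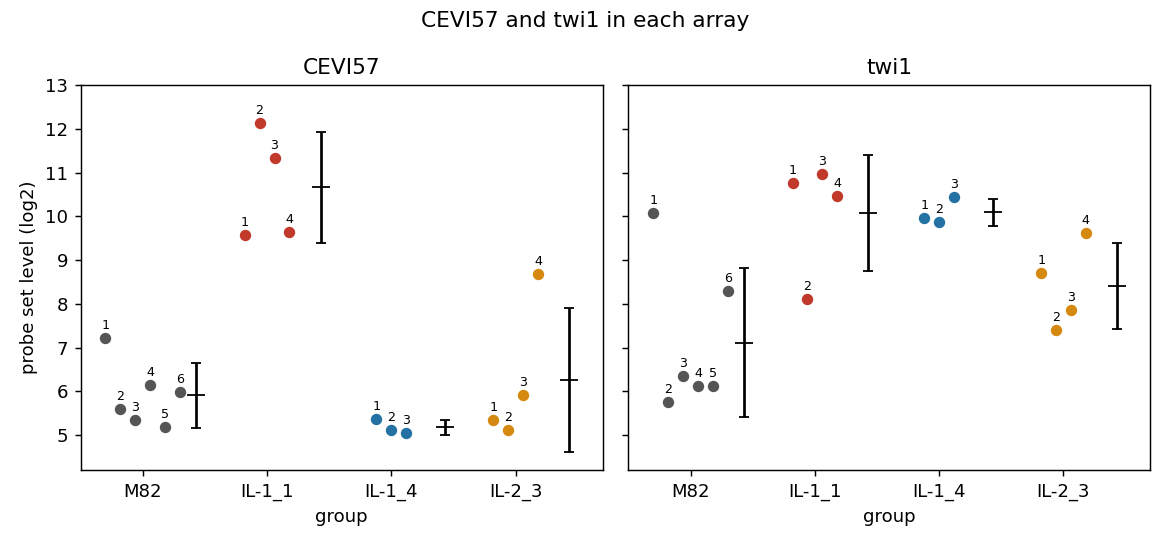
Log2 level of the CEVI57 probe set (left) and the twi1 probe set (right) in each of the 17 arrays, by group; numbers are replicates, and the bar beside each group is its mean ± SD. All 4 IL-1_1 arrays lie above the other groups for CEVI57, while for twi1 the 3 IL-1_4 arrays lie between 9.87 and 10.43 and the M82 arrays run from 5.75 to 10.08.

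The pattern of twi1 was different. In M82 the log2 level of twi1 had a lowest value of 5.75, a median of 6.23 and a highest value of 10.08. The 4 arrays of M82 replicates 2 to 5 lay between 5.75 and 6.35, and replicates 6 and 1 lay apart from them at 8.29 and 10.08. In IL-1_1 twi1 was at 10.76, 8.11, 10.97 and 10.46 in replicates 1 to 4, so that 3 arrays exceeded the M82 maximum and replicate 2 lay within the M82 range. In IL-1_4 it was 9.97, 9.87 and 10.43, close together and above 5 of the 6 M82 arrays. In IL-2_3 it was 8.71, 7.40, 7.87 and 9.63, all inside the M82 range.

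Mean twi1 levels were 10.09 ± 0.30 (SD, n = 3) in IL-1_4, 10.07 ± 1.33 (SD, n = 4) in IL-1_1, 8.40 ± 0.98 (SD, n = 4) in IL-2_3 and 7.12 ± 1.71 (SD, n = 6) in M82. IL-1_4 and IL-1_1 stood 2.97 ± 0.87 and 2.96 ± 0.80 (SE) log2 units above M82, which is 7.85-fold and 7.76-fold, and IL-2_3 stood 1.29 ± 0.80 above it. The M82 mean stood at percentile 20.5 of the probe sets, and without detection calls the low M82 values may be background. The chromosome 1 lines could not be placed in order, since they differed by -0.02 ± 0.94 (IL-1_1 minus IL-1_4). IL-1_4 exceeded IL-2_3 by 1.69 ± 0.94 with no overlap of arrays, a separation that 9.55% of all probe sets showed in that direction. IL-1_1 exceeded IL-2_3 by 1.67 ± 0.87 with overlap. By size, the twi1 difference ranked 2 among positive differences of IL-1_4 from M82, and 18 and 25 among those of IL-1_1 and IL-2_3. With differences in either direction ranked, it was 13, 31 and 70 in the same order. The twi1 levels were known when the gene was chosen, so these ranks too support nothing further. The comparisons share the M82 arrays, and M82 replicate 1 weighs on each: without it twi1 stood above M82 by 3.55 in IL-1_1, by 3.56 in IL-1_4 and, in IL-2_3, by 1.88.

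The CEVI57 and twi1 probe sets were among the most variable on the array. The level of CEVI57 spanned 7.09 log2 units over the 17 arrays, the 13th widest span of 10101 probe sets, and that of twi1 spanned 5.22, the 86th widest, against a median span of 0.93. The groups accounted for 82.3% of the variation of CEVI57 and 55.5% of that of twi1, against a median of 29.6% over all probe sets. Within groups the pooled SD was 1.10 for CEVI57 and 1.33 for twi1, ranks 136 and 68 from the top, against a median of 0.22. IL-1_4, with 3 arrays, was the tightest group for CEVI57 and for twi1, with SDs of 0.17 and 0.30. Among the SDs of all probe sets in IL-1_4 these stood at percentiles 70.6 and 91.3, so neither gene was steady for that group.

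CEVI57 and twi1 followed each other only in part. In IL-1_1 the array with the highest CEVI57 level, replicate 2 at 12.13, had the lowest twi1 level of that line, 8.11. In M82 and IL-2_3 the same array was highest for each gene: M82 replicate 1, with 7.22 for CEVI57 and 10.08 for twi1, and IL-2_3 replicate 4, with 8.68 and 9.63. In IL-1_4 high twi1 stood beside low CEVI57 in all 3 arrays. Over the 17 arrays Pearson's r between the genes was 0.44 and Spearman's rho 0.36. For deviations from group means r was 0.31 and rho 0.26. These coefficients are descriptions over arrays that share groups and normalization.

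**Figure D2:**
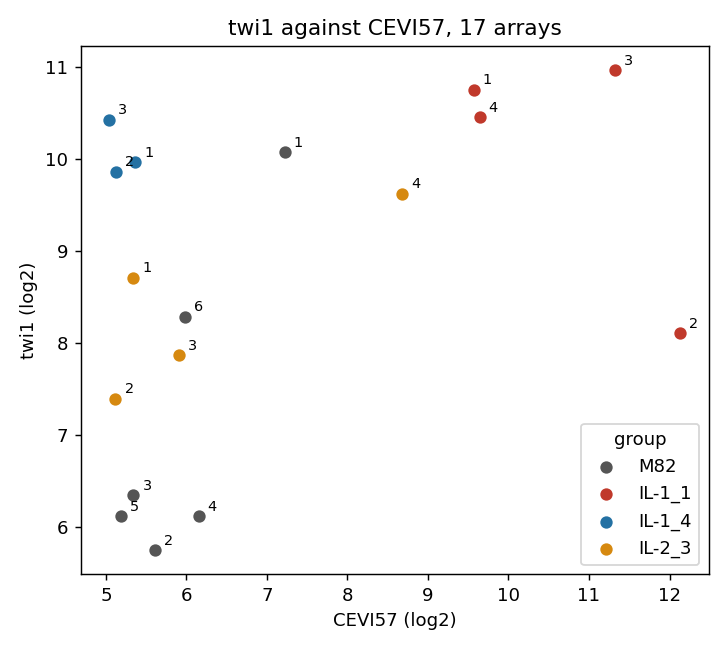
Log2 level of twi1 (vertical axis) against that of CEVI57 (horizontal axis) in the 17 arrays, coloured by group and numbered by replicate. IL-1_4 lies at high twi1 and low CEVI57, and IL-1_1 at high CEVI57 with replicate 2 at a twi1 level of 8.11. M82 replicate 1 and IL-2_3 replicate 4 are the highest of their groups on both axes.

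The levels of twi1 followed the main axis of variation within groups more closely than those of CEVI57 did. Deviations of twi1 from its group means followed the array scores on the within-group axis, with r of 0.83 and rho of 0.76 over 17 arrays, and r of 0.73 without M82 replicate 1 and IL-1_1 replicate 1, the arrays farthest from the median score. At least as strong a relation in either direction was held by 18.2% of all probe sets, and the axis was computed from all of them, twi1 included. M82 replicate 1, with the highest score of 51.1, deviated by 2.96 from its group's mean for twi1, and IL-1_1 replicate 2, with a score of -26.0, by -1.97. CEVI57 had r of 0.25 and rho of -0.04, and IL-1_1 replicate 1, with a score of 35.7, deviated by -1.10 from its group's mean for CEVI57. M82 replicate 1 deviated by 1.31 for CEVI57. IL-2_3 replicate 4, with a score of 32.2, deviated by 2.42 for CEVI57 and by 1.23 for twi1. Without the 3 arrays that scored highest on the axis, IL-1_1 stood 5.38 above M82 for CEVI57 and 3.32 above it for twi1, so neither difference was smaller without these arrays. The CEVI57 difference of IL-2_3 from M82 was then -0.20, against 0.35 with all arrays.

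**Figure D3:**
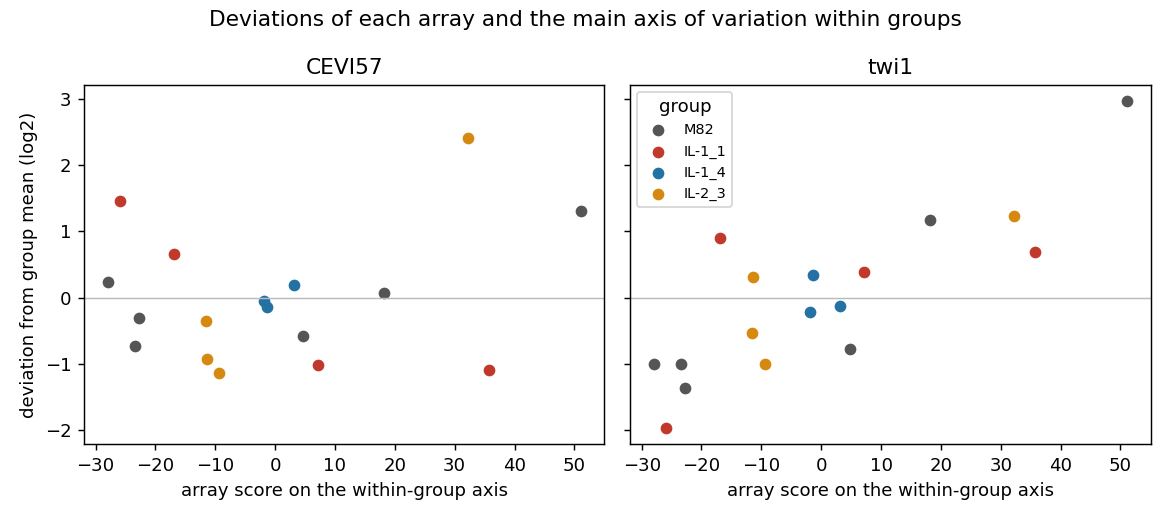
Deviation of each array from its group's mean (log2, vertical axis) for CEVI57 (left) and twi1 (right) against the array's score on the main axis of variation within groups (horizontal axis, no unit). Points for twi1 run from low left to high right, and those for CEVI57 do not.

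The genes most like CEVI57 over all 17 arrays had their highest group mean in IL-1_1. The 5 named probe sets with the highest r were CCD1A, which cleaves carotenoids into volatiles (0.90), BMY3, whose symbol is that of a beta-amylase (0.90), LOC543856 (0.89), GAL83, a subunit of an energy-sensing kinase complex (0.88), and loxC, a lipoxygenase that feeds the synthesis of fruit volatiles (0.88). CCD1A lay between 12.04 and 12.15 in IL-1_1 and between 10.06 and 10.54 in all other arrays. The likeness of CCD1A came from the contrast of IL-1_1 with the rest: for deviations from group means its r with CEVI57 was -0.01. That of loxC was 0.25, and those of GAL83, BMY3 and LOC543856 were 0.69, 0.61 and 0.50. Of the other 10100 probe sets, 181 had r of at least 0.8 with CEVI57 over the arrays, and 3 had it for deviations.

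Within groups the named gene most like CEVI57 was AOS, the allene oxide synthase of jasmonate synthesis, with r of 0.80 for deviations. Between groups it went the other way. AOS lay between 5.46 and 6.49 in IL-1_1 and between 6.84 and 7.77 in M82, and its difference from M82 of -0.97 ± 0.31 was not called (limma adjusted p = 0.053). LOC544075 followed with r of 0.74, and NAC1, a NAC-type transcription factor gene, with 0.73. AOS was highest of all arrays in IL-2_3 replicate 4, at 8.69, and highest of the M82 arrays in replicate 1, at 7.77, the arrays where CEVI57 too was highest in its group.

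The genes most like twi1 were different ones. Over 17 arrays they were DEM2 (r of 0.84), LOC544187 (0.78), AOX1a, the alternative oxidase of plant mitochondria (0.78), Asc-1, which makes tomato insensitive to a fungal toxin (0.77), and gdh1, a glutamate dehydrogenase gene (0.77). For deviations from group means they were LOC543600, Asc-1 and Eix1, a receptor-like protein of the locus that recognises a fungal xylanase, each with r of 0.93. Eix1 lay between 5.14 and 9.83 in M82, and between 8.23 and 10.07 in IL-1_1. In IL-1_4 Eix1 was at 6.16 to 6.60, among the lower M82 values, where twi1 was high. Only 8 probe sets had r of at least 0.8 with twi1 over the arrays, while 412 had it for deviations, 4.08% of all.

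**Figure D4:**
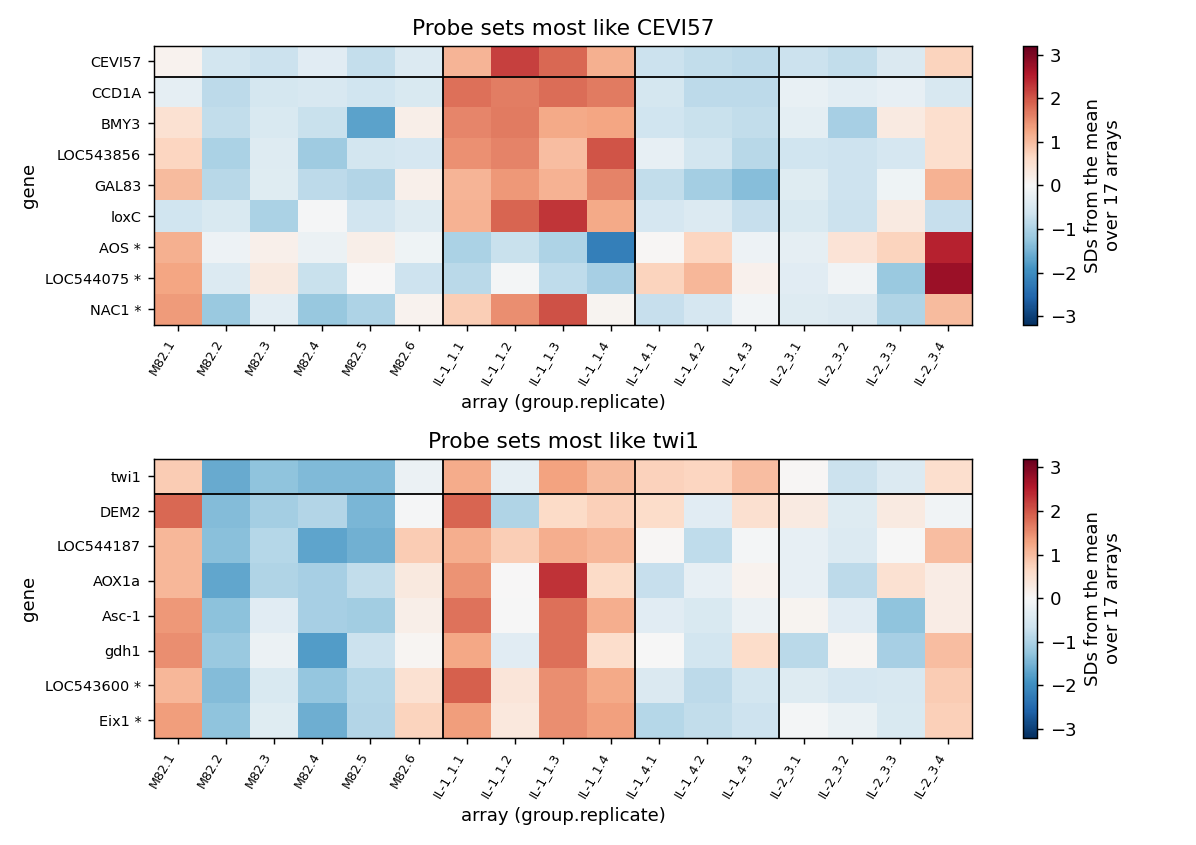
Levels in the 17 arrays (columns) of CEVI57 (top) and twi1 (bottom) and of the named genes most like each (rows), in SDs from each row's mean over the arrays; an asterisk marks genes chosen by deviations from group means. CEVI57, CCD1A and loxC are high in the 4 IL-1_1 arrays, and Eix1, at 6.16 to 6.60 in IL-1_4, is low there, where twi1 is high.

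The other genes with a CEVI symbol on the array did not show the CEVI57 pattern. CEVI-1, a peroxidase gene, lay between 3.71 and 4.08 in 16 of the 17 arrays and at 5.72 in IL-1_1 replicate 1. Its difference of IL-1_1 from M82 was 0.48 ± 0.26 (limma adjusted p = 0.214). The gene cevi19, whose probe set can match more than 1 transcript by its name, lay between 4.36 and 4.94 in M82, IL-1_4 and IL-2_3. In IL-1_1 cevi19 was at 5.31, 4.37, 5.75 and 4.66, a difference from M82 of 0.32 ± 0.21 (limma adjusted p = 0.294). Neither was called in any line. Both were dim: the highest group mean, that of IL-1_1, stood at percentile 4.53 of the probe sets for CEVI-1 and 9.66 for cevi19. Without detection calls, their values may be background.

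Other genes of defence, wounding and water stress were examined as 5 lists that together hold 87 probe sets, CEVI57 and twi1 left out. In IL-1_1 against M82, 12 of them (13.8%) rose and 0 fell at a limma adjusted p under 0.05, where 12.2% of all probe sets were called, 6.4% higher and 5.81% lower. The split over all probe sets turned with the scaling, from 646 higher and 587 lower to 607 and 775 with median centring and 638 and 726 with quantile normalization, while that of the lists was then 12 higher and 1 lower. Their median difference was 0.31 and that of all probe sets -0.03. The share called in either direction, 13.8%, was close to the 12.2% of the whole table. The share called higher was 13.8% against 6.4%, and the share called lower 0% against 5.81%. Single arrays moved the count of 12, to 28 without M82 replicate 1, 23 without IL-1_1 replicate 2 and 19 without IL-2_3 replicate 4. The count fell to 7 without M82 replicate 4, 6 without M82 replicate 2 and 5 without IL-1_1 replicate 1 or IL-1_1 replicate 4. Calls over all probe sets, 1233 in the main fit, moved too. In the same order they were 3079, 1645, 1327, 595, 547, 469 and 421. Without the 3 arrays with the highest axis scores the list count was 24, of which 20 were higher and 4 lower. Over all probe sets it was then 1916, with 1056 higher and 860 lower.

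The list nearest to twi1 in kind, that of sugar-conjugating transferases, held only gtsatom, placed there by its symbol. A gtsatom probe set rose by 1.32 ± 0.25 in IL-1_1 (limma adjusted p = 0.00519), and the other differed by 0.22 ± 0.16 (adjusted p = 0.337). In IL-1_4, where twi1 averaged 10.09, these gtsatom probe sets differed from M82 by -0.03 and -0.15, and in IL-2_3, where twi1 averaged 8.40, by 0.75 ± 0.25 and 0.07 ± 0.16 (limma adjusted p = 0.499 and 0.999). The larger of these gtsatom values was called in IL-2_3 with the within-group axis as a covariate (limma adjusted p = 0.0324). In IL-1_1, 12.2% of all probe sets were called, 6.4% higher and 5.81% lower. Of 23 salicylate and phenylpropanoid probe sets, 4 (17.4%) rose there and 0 fell, with a median of 0.54. They include MAPKKKalpha, a kinase of cell death signalling (0.68 ± 0.12, limma adjusted p = 0.00243). THT7-1, a hydroxycinnamoyl transferase that makes defence amides, rose by 1.11 ± 0.34 (limma adjusted p = 0.0437), a call lost without any single array (0.0537 to 0.145) other than M82 replicates 1 and 6, IL-1_1 replicate 1 and IL-2_3 replicates 2, 3 and 4. The calls of MAPKKKalpha and gtsatom were kept without any single array.

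Of 21 wound and jasmonate probe sets, 2 (9.52%) rose in IL-1_1 and 0 fell, where 12.2% of all probe sets were called, 6.4% higher. The 2 were loxC (4.37 ± 0.50, limma adjusted p = 4.08e-05) and JA2, a NAC factor gene. Of the 21, 9 had a positive difference, with a median of -0.08. JA2 rose by 2.51 ± 0.62 (limma adjusted p = 0.0204), and its call was lost without M82 replicate 2 (0.0501) or IL-1_1 replicate 1 (0.0795). The other oxylipin genes of the list went both ways and were not called (limma adjusted p from 0.053 to 0.714). LOX1.1, loxD, OPR1 and TomloxE differed by 1.99, 0.96, 0.72 and 0.60. AOS, HPL, AOC, LOXB, OPR3 and opr2 differed by -0.97, -0.71, -0.54, -0.37, -0.18 and -0.07. AOS aside, these stand outside the naming rule and were picked after their values were seen. Of 18 pathogen and viroid defence probe sets, 2 (11.1%) rose and 0 fell, with a median of 0.47. The pathogenesis-related genes PR-P2 (1.98 ± 0.98), P4 (1.43 ± 0.81) and a PR1b1 probe set (2.08 ± 0.98) were not called (limma adjusted p = 0.167, 0.221 and 0.149); they stand outside the naming rule and were picked after their values were seen. Of 25 water stress and abscisic acid probe sets, 4 (16%) rose and 0 fell, with a median of 0.21. JA2 is on this list too and is counted again among the 4. That list, written as patterns of symbols, also took in 4 probe sets of Rab GTPase genes and 10 of ethylene-responsive ER clones.

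In the other lines the stress lists held few calls. In IL-1_4, 2 of 87 probe sets fell and 0 rose (limma adjusted p under 0.05; 0.644% of all probe sets were called, 0.129% higher and 0.515% lower). These were opr2, an oxophytodienoate reductase gene by its symbol (-3.71 ± 0.14, limma adjusted p = 7.53e-11), and the ethylene-response clone ER24 (-2.15 ± 0.23, limma adjusted p = 3.62e-05). Whether either gene lies in the IL-1_4 segment, and how well its probes match Solanum pennellii transcripts, was not tested. The median of the 87 in IL-1_4 was -0.01. In IL-2_3, 0 of 87 were called by limma, 3 had an unadjusted p under 0.05, and 0.901% of all probe sets were called; the median was 0.09.

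**Figure D5:**
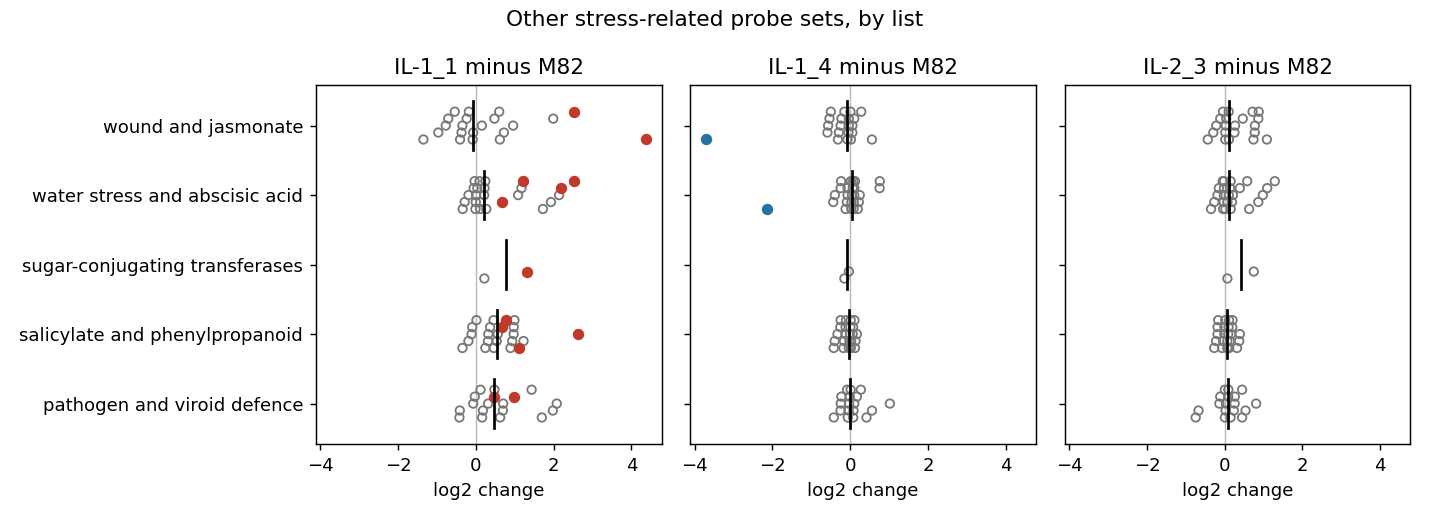
Log2 change from M82 (horizontal axis) of each probe set in the 5 lists of other stress-related genes (rows) in the lines IL-1_1 (left panel), IL-1_4 (middle) and IL-2_3 (right). Filled points have a limma adjusted p under 0.05, and black bars are list medians; IL-1_1 has 12 called probe sets, all higher, IL-1_4 has 2, both lower, and IL-2_3 has 0. A probe set on more than 1 list is drawn on each.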

How the data were processed

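The authors deposited 1 log2 intensity per probe set and array, made with a tool named affy per the submitters' processing notes; for its version, background correction and summarization, nothing is given in the sources used here. The values run from 3.31 to 14.75, from which base 2 was inferred. Array medians lay between 9.97 and 10.045, and no further normalization was applied. No detection calls are used, so a low value may be background. The arrays are tomato arrays, while the lines hold Solanum pennellii segments. How well the probes match transcripts of those segments was not tested, so differences between groups are differences in probe set signal. The 108 control probe sets were left out of the 10209 in the table. Differences, standard errors and adjusted p-values come from 1 limma fit over 17 arrays with 1 mean per group (limma 3.58.1, R 4.3.3; two-sided, Benjamini-Hochberg over 10101 probe sets, called at 0.05). The fit was tested on simulated data. The number of arrays limits the precision.

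The genes, lists and alternatives were chosen with earlier results of these data known. Named are CEVI57 and twi1, up to 4 called members of each list and comparison (or the 2 with the smallest p), and the 5 named probe sets with the highest Pearson r to each gene over arrays and the 3 highest by deviations from group means. Not every gene the rule allows is named. Matches by chromosome neighbourhood and by gene description were not made, and no sequences are given, since no genome annotation was used here.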

Additional observations from a re-analysis of the deposited data

Results flagged for a closer look

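Among 120 combinations of a named probe set and a group of 4 or 6 arrays, 8 held an array far from the rest of its group, measured as its gap to the nearest array divided by the group's range; chance flags about 1 in 20. CEVI57 and twi1 were not among them, although the twi1 level of IL-1_1 replicate 2 (0.82) and the CEVI57 level of IL-2_3 replicate 4 (0.778) came near the limit for 4 arrays. CEVI-1 stood out in IL-1_1 replicate 1, at 5.72 against 4.04 for the nearest array (0.918). IL-2_3 replicate 4 stood out as high for LOC543600 (0.902), LOC543856 (0.891) and ARG2, an arginase gene (0.833), and M82 replicate 1 as high for AOS (0.721). Eix1 stood out as low in IL-1_1 replicate 2, at 8.23 against 9.78 (0.845), the array where twi1 was low too. CHI9, a chitinase gene, was low in IL-1_1 replicate 3 (0.88), and MPK3, a kinase gene, was high in IL-2_3 replicate 1 (0.89).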

How the results depend on the processing

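The differences of CEVI57 and twi1 from M82 moved by less than 1 pooled SD in all 147 alternative values. This bound is wide, and many alternatives could not exceed it. The fit to only the 2 groups compared, the axis covariate and leaving out arrays of other groups leave a difference unchanged by construction. The sign turned for CEVI57 in IL-2_3, from 0.35 to -0.46 without IL-2_3 replicate 4. CEVI57 has no value without the dimmest 25% of probe sets, since it is among them. With 1 array left out, CEVI57 ran from 4.26 to 5.12 in IL-1_1, and twi1 from 2.66 to 3.61 in IL-1_1 and from 2.70 to 3.56 in IL-1_4. The count of stress probe sets called in IL-1_1, 12, ran from 5 to 28 with 1 array left out. It was 4 with only the 2 groups compared, 6 without the dimmest 25% of probe sets (fewer tested), 5 without M82 replicate 5 and IL-1_4 replicate 1, whose 3-prime minus 5-prime control differences were highest, 24 without the 3 arrays with the highest within-group axis scores, and 41 with the within-group axis as a covariate, which leaves the differences as they are by construction and lowers the spread. With median centring or quantile normalization it was 13. The count was 1 in IL-1_4 without the dimmest 25% and 2 in IL-2_3 with the axis covariate. Over all probe sets, 1233 calls in IL-1_1 became 377 with only the 2 groups compared and 3747 with the axis covariate. They became 1062 without the dimmest 25%, 555 without M82 replicate 5 and IL-1_4 replicate 1, and 1916 without the 3 arrays. With median centring and quantile normalization they were 1382 and 1364, and with 1 array left out they ran from 421 to 3079. In IL-1_4, 65 calls became 48 to 108, and in IL-2_3, 91 became 60 to 147. The likeness of CCD1A to CEVI57 was -0.0146 for deviations from group means.

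Replicate numbers are shared by the groups, but nothing in the labels says that they pair the arrays. Of 21 pairs of same-numbered arrays, 10 had a correlation of deviations over 0.1, and the correlations ran from -0.71 to 0.61. These values do not settle whether the numbers pair the arrays. With the replicate block the count of stress probe sets called in IL-1_1 was 11, all higher. Calls over all probe sets were then 815, with 382 higher and 433 lower, against 1233 in the main fit. CEVI57 and twi1 stood 4.58 and 3.00 above M82 in IL-1_1 with this block.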
